A study of Rattus norvegicus with 72 samples.

Results

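The voltage-gated ion channel genes were taken from the panel by name, as every gene whose symbol begins with Kcn, Scn and a digit, Cacn or Hcn. This gave 5 of the 145 genes measured, of which 4 are reported here, namely Hcn2, Kcna2, Kcnj9 and Scn4b. No gene for a calcium channel of the Cacn family was chosen. RNA was measured by microfluidic qRT-PCR in 39 samples of the dorsal vagal complex (DVC), the brainstem area that receives vagal input, and 33 samples of the central nucleus of the amygdala (CeA), an output nucleus of the amygdala. With ZT counted in hours from lights on, 7 of the DVC samples were taken at ZT3, 17 at ZT5 and 15 at ZT9. The CeA had 7, 14 and 12 samples at these times. All samples came from male Sprague Dawley rats that received no alcohol and no other treatment, but that were kept on a Lieber DeCarli liquid diet restricted to the calories eaten by alcohol-fed partners, so no group was fed freely. Each sample was the tissue of both sides of 1 animal. The 72 samples came from 40 animals, of which 32 gave both regions.

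These genes set how a neuron responds to its inputs. Hcn2 encodes a pore-forming subunit of the hyperpolarization-activated cation channel that carries I_h, a pacemaker current opened by hyperpolarization and shifted by cAMP. Kcna2 encodes Kv1.2, a low-threshold delayed rectifier that sits along axons and limits repetitive firing. Kcnj9 encodes GIRK3, an inwardly rectifying potassium channel subunit that opens with Gβγ after activation of inhibitory receptors such as opioid and GABA-B receptors. It carries no voltage sensor and entered the set by its name. Scn4b encodes the β4 subunit, a membrane protein that accompanies the pore of voltage-gated sodium channels and shapes the resurgent sodium current. Channels of these kinds are known in both vagal brainstem and amygdala neurons.

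RefSeq (rat assembly GRCr8) listed all 4 genes. Hcn2 (gene ID 114244) lies on chromosome 7 from 10620422 to 10639457 and Kcna2 (25468) on chromosome 2 from 197392746 to 197406606. Kcnj9 (116560) lies on chromosome 13 from 87313191 to 87320293 and Scn4b (315611) on chromosome 8 from 54343873 to 54359046. Each value is the signal of 1 amplicon between a pair of primers designed to span an intron, so the study's primers for Hcn2, Kcna2 and Kcnj9 are given here as what was measured of each transcript, 5′ to 3′.
Hcn2 forward: cacccctacagcgacttcag
Hcn2 reverse: tttcccaccatgaacaacag
Kcna2 forward: cgggtacccatctgcaag
Kcna2 reverse: agatgcacagctcagcaaaa
Kcnj9 forward: attctcgagggcatggtg
Kcnj9 reverse: ggaagctagcgtagtccacct
These 6 primers were 18 to 21 bases long with 45.0 to 61.1% G and C, within the range of the whole panel. Splice forms that lack a primer site are not seen by the assay.

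The value of a reaction is its threshold cycle (C_T), after quantile normalization across samples. A value 1 cycle lower stands for about 2-fold more cDNA, and differences between groups are given below as log2 expression, so that a positive difference means higher expression in the group named first. C_T values of different assays depend on the primers and are not compared between genes. Kcna2 and Kcnj9 were measured in all 72 samples, Scn4b in all DVC and 32 of 33 CeA samples, and Hcn2 in all DVC and 31 CeA samples. Hcn2 belonged to the 72 assays that failed together in 2 half-measured CeA samples (ZT5 replicate 1 and ZT9 replicate 10, with 78 and 74 failed reactions). The other 3 channel genes belonged to the remaining 73 assays. These 2 sets were read from which reactions failed together and from the order of the rows, as no label names them. In the remaining samples at most 9 reactions failed.

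A pair of DVC samples stood apart. ZT5 replicate 17 held the highest or lowest value of its region in 50 of the 141 genes measured in it, and ZT9 replicate 12 in 48 of 141. Results that rest on them are also given without them. The animals' numbers in the labels were also split into a lower run of 16 and a higher run of 24, called lower- and higher-numbered animals here. The split was placed so that the higher run holds every ZT3 animal, and ZT5 and ZT9 hold both. What else separated the 2 runs is not given, and the RNA extraction kit, of which the protocol names 2, is not stated for each sample.

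Expression of all 4 channel genes differed between the DVC and the CeA. Scn4b, Kcna2, Kcnj9 and Hcn2 were higher in the DVC, by 2.63, 1.33, 1.04 and 0.97 on the log2 scale. This was tested with limma across all genes with time point as a covariate, and 71.8% of all genes tested passed the same threshold (42.3% higher in the DVC and 29.6% higher in the CeA), so that 4 of 4 is read against a panel in which most genes differed. In tissue punches, fewer cells that express a gene and less RNA of it per cell cannot be told apart.

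**Figure D1:**
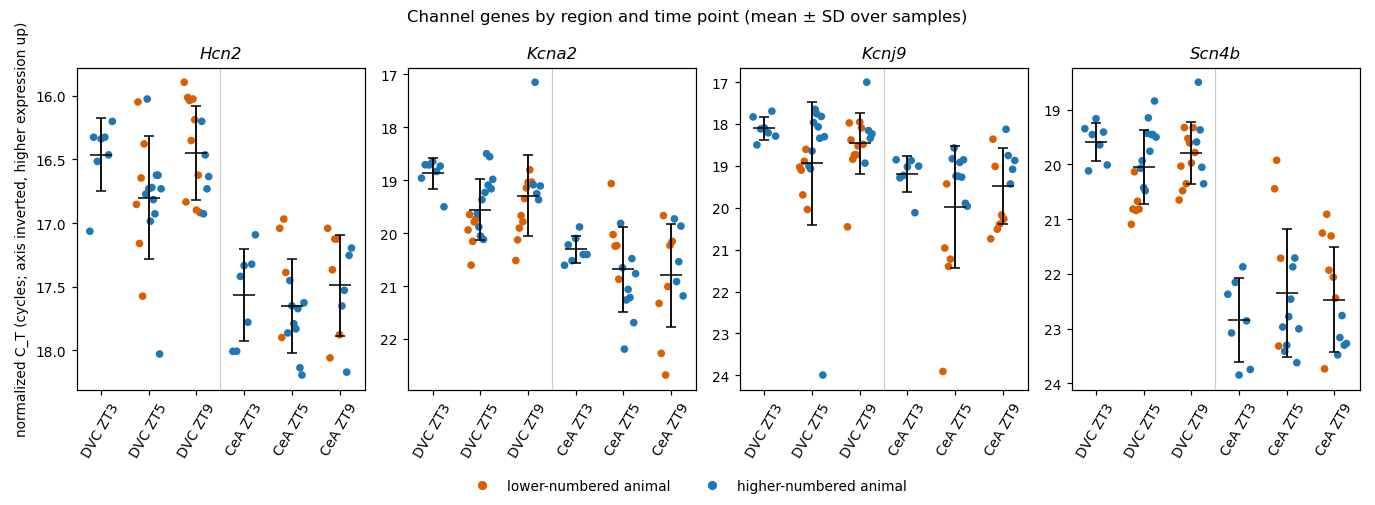
Normalized C_T of each channel gene in every sample, by region and time point. The y axis is in cycles and inverted so that higher expression is up, each gene has its own scale, points are samples colored by the run of animal numbers, and bars are means ± SD. Scn4b lies between 18.50 and 21.10 in the DVC and between 19.93 and 23.85 in the CeA.

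Scn4b, the sodium channel β4 subunit, showed the largest region difference of the 4 genes and ranked 5 in size among all genes tested. Its normalized C_T ran from 18.50 to 21.10 with a median of 19.78 in the 39 DVC samples. In the 32 CeA samples it ran from 19.93 to 23.85 with a median of 22.77. The DVC samples were the higher in expression, with an overlap made by the few CeA samples below 21.10. The difference of 2.63 ± 0.19 (SE) corresponded to 6.19-fold (95% confidence interval of the log2 difference 2.25 to 3.01, limma adjusted p = 6.65e-21). In animals with both regions, expression was higher in the DVC in 29 of 31.

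Kcna2, the Kv1.2 subunit, had a normalized C_T from 17.15 to 20.60 with a median of 19.25 in the DVC, and from 19.06 to 22.68 with a median of 20.52 in the CeA. The ranges overlapped between 19.06 and 20.60. Expression was 2.52-fold higher in the DVC (log2 difference 1.33 ± 0.16 SE, limma adjusted p = 2.80e-11) and higher there in 29 of 32 animals.

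Hcn2, the I_h subunit, was the most even of the channel genes. It ran from 15.89 to 18.03 with a median of 16.62 in the DVC, and from 16.97 to 18.20 with a median of 17.63 in the CeA. The highest C_T of the DVC was that of ZT5 replicate 17, and the next was 17.58, so that the ranges overlapped from 16.97 on. Expression was 1.96-fold higher in the DVC (0.97 ± 0.10 SE, limma adjusted p = 2.14e-14) and higher there in 29 of 30 animals.

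Kcnj9, the GIRK3 subunit, ran from 17.004 to 23.99 with a median of 18.34 in the DVC, and from 18.13 to 23.91 with a median of 19.25 in the CeA. Each region held 1 sample far above the rest in C_T, DVC ZT5 replicate 17 at 23.99 and the half-measured CeA ZT5 replicate 1 at 23.91. Expression was 2.06-fold higher in the DVC (1.04 ± 0.25 SE, limma adjusted p = 1.53e-04) and higher there in 29 of 32 animals. The difference was 1.14 without the 2 DVC samples that stood apart. It was 0.55, with an adjusted p of 0.0782, when the sample's median C_T before normalization was a covariate.

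Within animals, where the DVC and CeA values of the same animal were subtracted, the differences of Hcn2, Kcna2 and Scn4b passed a two-sided sign-flip permutation test over animals with p = 1e-05, the smallest that 100000 draws can give. The p was 7e-05 for Kcnj9. The differences varied most for Scn4b and Kcnj9, with an SD over animals of 1.41 and 1.37, and least for Hcn2, with an SD of 0.45.

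**Figure D2:**
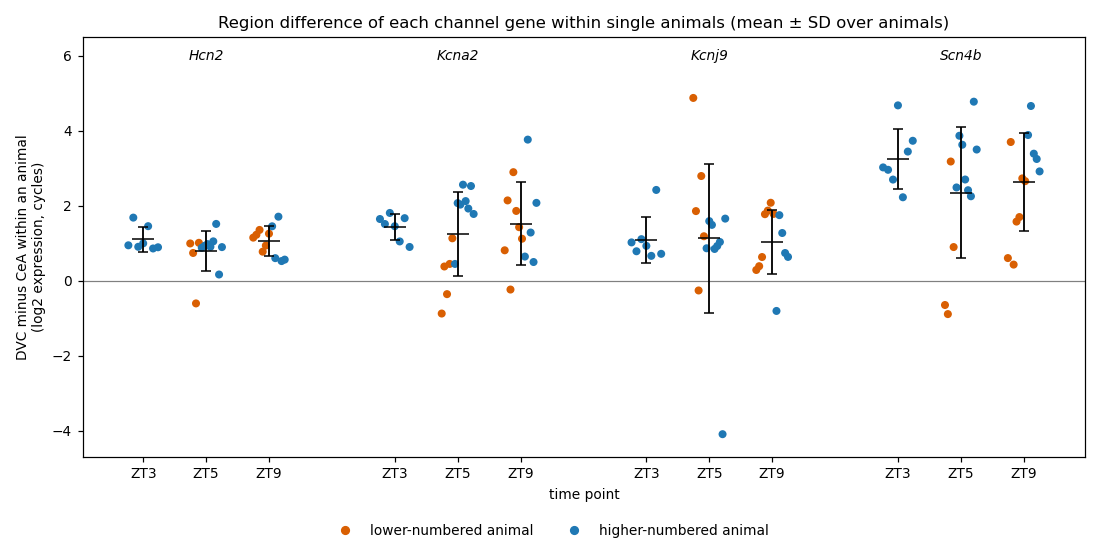
DVC minus CeA expression within each animal that gave both regions (log2, in cycles), by gene and time point, with points colored by the run of animal numbers and bars giving means ± SD over animals. Hcn2 lies above 0 in 29 of 30 animals, Kcna2 and Kcnj9 each in 29 of 32, and Scn4b in 29 of 31. The lowest Scn4b points at ZT5 are lower-numbered animals.

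The region differences were present at each time point for 3 genes. At ZT3 the 7 DVC and 7 CeA samples did not overlap for Hcn2, Kcna2, Kcnj9 and Scn4b, and the same held for 25.4% of all genes. At ZT5 no channel gene was free of overlap, against 6.34% of all genes, and at ZT9 Hcn2 and Scn4b were, against 11.3%. Scn4b differed by 3.25 at ZT3, 2.30 at ZT5 and 2.67 at ZT9, with limma adjusted p between 8.01e-12 and 1.30e-09. Kcna2 differed by 1.43, 1.13 and 1.51, and Hcn2 by 1.11, 0.85 and 1.04, all past the threshold. Kcnj9 differed by 1.09 at ZT3, 1.04 at ZT5 and 1.02 at ZT9. It passed at ZT5 and ZT9 (limma adjusted p = 0.0156 and 0.0298) but not at ZT3 (0.116), while the sign-flip permutation test within animals gave p = 0.0156 at ZT3, the smallest that 7 animals allow, 0.0612 at ZT5 and 0.00396 at ZT9, so the 2 tests disagreed at ZT3 and ZT5. Over all genes, 45.8%, 59.2% and 58.5% passed at ZT3, ZT5 and ZT9.

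In the DVC, all 4 channel genes had higher mean expression at ZT3 and at ZT9 than at ZT5, but none passed the test for a time point effect. The limma F-test over the 3 time points called 0 of 4 genes at an adjusted p of 0.05, against 10.3% of the 145 genes tested. At an unadjusted p of 0.05 it called 1, Hcn2, against 21.4% of all genes. The means exceeded ZT5 by more than 0.25, the threshold that the study set on −ΔΔC_T, in 4 of 4 genes at ZT3, against 26.2% of all genes, and in 4 of 4 at ZT9, against 22.8%. At both times together this held for 13.8% of all genes. As adjusted differences none of the 4 passed against ZT5, where 5.52% of all genes passed at ZT3 and 7.59% at ZT9. The median of the 4 genes was 0.57 at ZT3 and 0.31 at ZT9, beside medians of 0.02 and 0.02 over all genes. With the 2 DVC samples that stood apart left out, all 4 stayed above 0.25 at ZT3, the lowest at 0.26. At ZT9 only Hcn2 did, with 0.31 against 0.14 for Kcna2, 0.06 for Kcnj9 and 0.24 for Scn4b. The medians of the 4 were then 0.53 and 0.19, beside 0.04 and 0.05 over all genes. The share of all genes above 0.25 was not counted in this setting.

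Hcn2 ran from 16.20 to 17.06 with a median of 16.34 in the 7 DVC samples at ZT3, from 16.02 to 18.03 with a median of 16.73 in the 17 at ZT5, and from 15.89 to 16.93 with a median of 16.46 in the 15 at ZT9. The 3 groups overlapped over most of their range. Expression at ZT9 was 0.35 ± 0.15 (SE) above ZT5, or 1.28-fold (permutation p = 0.0268, limma adjusted p = 0.140), and at ZT3 0.34 ± 0.19 above ZT5 (limma adjusted p = 0.447).

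Kcna2 ran from 18.65 to 19.50 with a median of 18.73 at ZT3, from 18.50 to 20.60 with a median of 19.65 at ZT5, and from 17.15 to 20.52 with a median of 19.25 at ZT9. All 7 samples at ZT3 were above the median expression at ZT5, though the ranges overlapped. The difference was 0.69 ± 0.27 (SE), or 1.61-fold (95% confidence interval 0.14 to 1.23). An exact permutation test of these 2 groups gave p = 0.00655, and the limma adjusted p over all genes was 0.153. Without the 2 DVC samples that stood apart it was 0.71 with an adjusted p of 0.0436, and with robust regression 0.71 with an adjusted p of 0.0190. Leaving out ZT9 replicate 12 alone gave an adjusted p of 0.0497, and median centring within each set of assays gave 0.78 with an adjusted p of 0.0286. At ZT9 the difference from ZT5 was 0.27 ± 0.21 (limma adjusted p = 0.533), and 0.14 without the 2 samples that stood apart. In the higher-numbered animals alone, the run to which every ZT3 animal belonged, the ZT3 difference was 0.45 with an adjusted p of 0.566. With the run of animal numbers as a factor it was 0.44 with a limma adjusted p of 0.528. Nor did it pass under median centring over all genes (limma adjusted p = 0.0856), without normalization (0.0788) or under quantile normalization per region (0.162).

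Kcnj9 ran from 17.70 to 18.50 with a median of 18.12 at ZT3, from 17.65 to 23.99 with a median of 18.65 at ZT5, and from 17.004 to 20.46 with a median of 18.38 at ZT9. All 7 samples at ZT3 were above the median expression at ZT5 here too, with overlapping ranges (exact permutation p = 0.0420). The spread differed, with an SD of 0.27 at ZT3 and 1.47 at ZT5. The differences from ZT5 were 0.83 ± 0.46 (SE) at ZT3 and 0.48 ± 0.36 at ZT9 (limma adjusted p = 0.447 and 0.500). Without ZT5 replicate 17 they were 0.52 and 0.17, and without both DVC samples that stood apart 0.52 and 0.06.

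Scn4b ran from 19.17 to 20.12 at ZT3, from 18.84 to 21.10 at ZT5 and from 18.50 to 20.65 at ZT9, with medians of 19.46, 20.07 and 19.78. Expression exceeded ZT5 by 0.46 ± 0.26 (SE) at ZT3 and 0.26 ± 0.20 at ZT9 (limma adjusted p = 0.447 and 0.533). In higher-numbered animals alone these were 0.090 and 0.11, with the run of animal numbers as a factor 0.21 and 0.48, and adjusted for the median C_T of each sample 0.23 and 0.081. Without ZT9 replicate 12 the ZT9 difference was 0.16. The 3 groups overlapped over most of their range. Between ZT9 and ZT3 no channel gene passed in the DVC, where 2.07% of all genes did.

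The samples' overall level before normalization also moved with time, in both regions. In the DVC the median C_T of a sample averaged 18.70 at ZT3, 19.30 at ZT5 and 18.84 at ZT9, with SDs from 0.70 to 0.89. In the CeA it averaged 19.61, 20.28 and 20.11, with SDs from 0.83 to 0.87. Across DVC samples, Spearman's rho between this median and the normalized C_T was 0.70 for Kcna2, 0.53 for Scn4b, 0.45 for Kcnj9 and −0.27 for Hcn2. With the sample median as a covariate the differences of Kcna2 from ZT5 were 0.38 at ZT3 and 0.03 at ZT9, and that of Hcn2 at ZT9 was 0.44 with an adjusted p of 0.0385. Without normalization the median of all genes in the DVC was 0.73 higher at ZT3 and 0.49 higher at ZT9 than at ZT5. The channel genes there ranged from 0.93 to 1.54 and from 0.72 to 1.005. In the CeA the median of all genes was then 0.61 higher at ZT3 and 0.13 higher at ZT9. The part of this overall level in the differences was not tested.

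**Figure D3:**
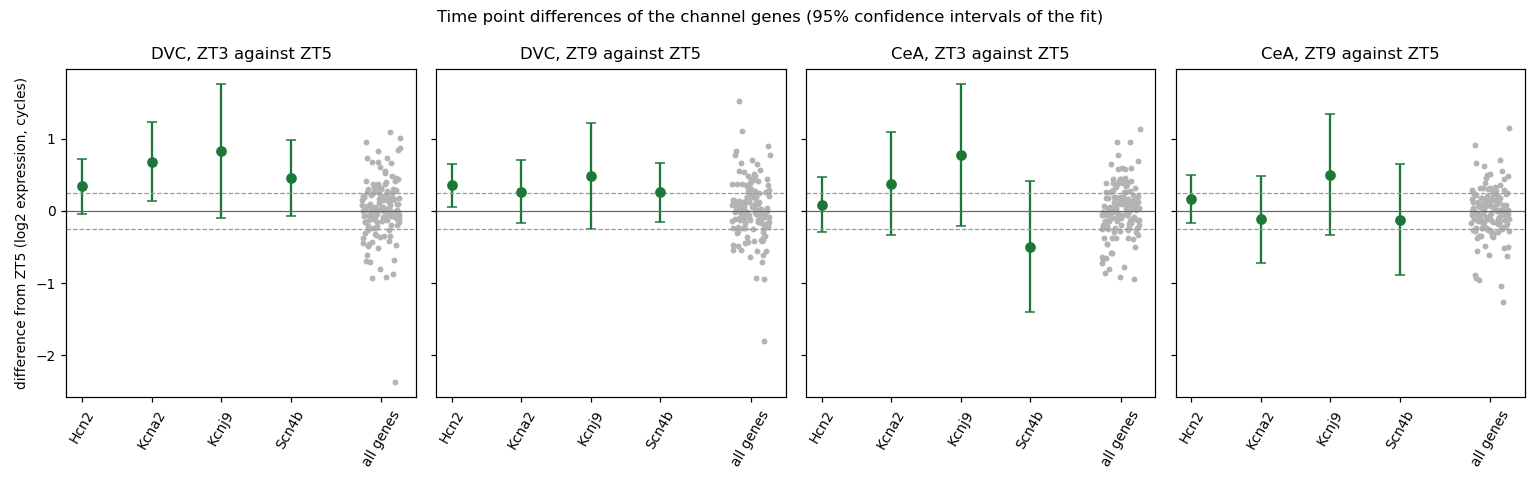
Difference from ZT5 (log2 expression, in cycles) of each channel gene at ZT3 and ZT9 in the DVC and CeA, with 95% confidence intervals from limma. Gray points are all genes tested, and dashed lines mark 0.25 in both directions. In the DVC all 8 differences lie between 0.26 and 0.83, and the intervals of Kcna2 at ZT3 and of Hcn2 at ZT9 do not hold 0.

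In the CeA the channel genes did not share a direction. The limma F-test called 0 of 4 genes at an adjusted p of 0.05 and 0 at an unadjusted p of 0.05, against 3.52% and 14.8% of all genes tested. Differences above 0.25 were found in 2 of 4 genes at ZT3, against 23.2% of all genes, and in 1 of 4 at ZT9, against 18.3%. Kcnj9 was above 0.25 at both times, against 9.86% of all genes, and Scn4b was below −0.25 at ZT3, against 17.6%. No difference from ZT5 passed after adjustment, where 1.41% of all genes did at ZT3 and 4.93% at ZT9. The median of the 4 genes was 0.23 at ZT3 and 0.025 at ZT9, beside medians of 0.034 and −0.0036 over all genes.

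Kcnj9 ran from 18.86 to 20.12 at ZT3, from 18.57 to 23.91 at ZT5 and from 18.13 to 20.74 at ZT9. It was 0.78 ± 0.49 (SE) above ZT5 at ZT3 and 0.50 ± 0.41 at ZT9 (limma adjusted p = 0.560 and 0.648). Without the half-measured ZT5 replicate 1 these were 0.48 and 0.20. In higher-numbered animals alone they were 0.00039 and 0.35, and with the run of animal numbers as a factor 0.19 and 0.88, so the ZT3 difference was not seen within the run that holds every ZT3 animal. Kcna2 ran from 19.88 to 20.61 at ZT3, from 19.06 to 22.19 at ZT5 and from 19.67 to 22.68 at ZT9, and differed from ZT5 by 0.38 ± 0.35 and −0.11 ± 0.30. Hcn2 differed from ZT5 by 0.09 ± 0.19 and 0.16 ± 0.16. Scn4b ran from 21.87 to 23.85 at ZT3, from 19.93 to 23.62 at ZT5 and from 20.91 to 23.74 at ZT9, and differed by −0.50 ± 0.45 at ZT3 and −0.12 ± 0.38 at ZT9. In higher-numbered animals alone these were −0.054 and −0.40, and with the run of animal numbers as a factor −0.085 and −0.49. The ZT3 difference was −0.33 without ZT3 replicate 4 and −0.30 without ZT5 replicate 2. None of the CeA differences of these 4 genes passed, and the signs of Hcn2 at ZT3, of Kcna2 at ZT9 and of Scn4b at both times turned under other scalings.

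The time courses of the 2 regions were compared by the interaction of time point and region, which called 0 of 4 channel genes and 0% of all genes tested. At an unadjusted p of 0.05 it called 0 channel genes and 15 of all genes. The time point effect on the within-animal region difference also called none of the 4, with adjusted p from 0.882 to 0.997. Scn4b came closest in the interaction. Its DVC change from ZT5 to ZT3 exceeded its CeA change by 0.96 ± 0.51 (SE; 95% confidence interval −0.06 to 1.98). For Kcnj9 the same difference was 0.05 with an interval from −1.32 to 1.42.

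Several channel genes differed on average between the runs of animal numbers, with ranges that overlapped. With time point in the model, Kcna2 and Scn4b were higher in the DVC of higher-numbered animals, Kcnj9 was higher in their CeA and Scn4b was lower in their CeA. In the DVC, 2 of the 4 genes passed, against 16.6% of 145 genes, and in the CeA 2 of 4, against 24.6%. Without the 2 DVC samples that stood apart, 3 of the 4 passed in the DVC, as did 36 of the 145 genes, since Kcnj9 then passed too, with 0.63 and an adjusted p of 0.0220. Hcn2 passed in neither region.

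In the DVC, Scn4b ran from 19.33 to 21.10 with a median of 20.25 in the 16 lower-numbered animals and from 18.50 to 20.48 with a median of 19.50 in the 23 higher-numbered ones. Expression was 0.72 ± 0.19 (SE) higher in the latter (1.64-fold, limma adjusted p = 0.00580). In the CeA the order was the opposite. Scn4b ran from 19.93 to 23.74 with a median of 21.71 in 11 lower-numbered animals and from 21.71 to 23.85 with a median of 23.00 in 21 higher-numbered ones, a difference of −1.34 ± 0.33 (limma adjusted p = 0.00361). The CeA call depended on the scaling, with −0.92 under median centring (adjusted p = 0.0304), −0.78 under median centring within each set of assays (0.0782) and −0.57 without normalization (0.484). At ZT5 alone the CeA difference was −1.44 and at ZT9 alone −1.25 (adjusted p = 0.106 and 0.107), and the DVC difference was 1.05 and 0.33 (0.0182 and 0.592).

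The region difference of Scn4b accordingly depended on the run of numbers. Lower-numbered animals had a difference of 1.52 ± 0.27 (SE) and higher-numbered animals one of 3.28 ± 0.21, or 2.86-fold and 9.70-fold. The difference between these, 1.76 ± 0.34, passed the threshold (limma adjusted p = 2.37e-04), which 2.11% of all genes did. Within animals the DVC was the higher in 9 of 11 lower-numbered and in 20 of 20 higher-numbered animals, and the within-animal differences of the 2 runs differed in a permutation test (p = 1e-04). At ZT5 alone the difference between the runs was 2.49 (adjusted p = 0.00794) and at ZT9 alone 1.58 (0.276). ZT3, which had the largest Scn4b region difference of the 3 time points, held only higher-numbered animals.

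**Figure D4:**
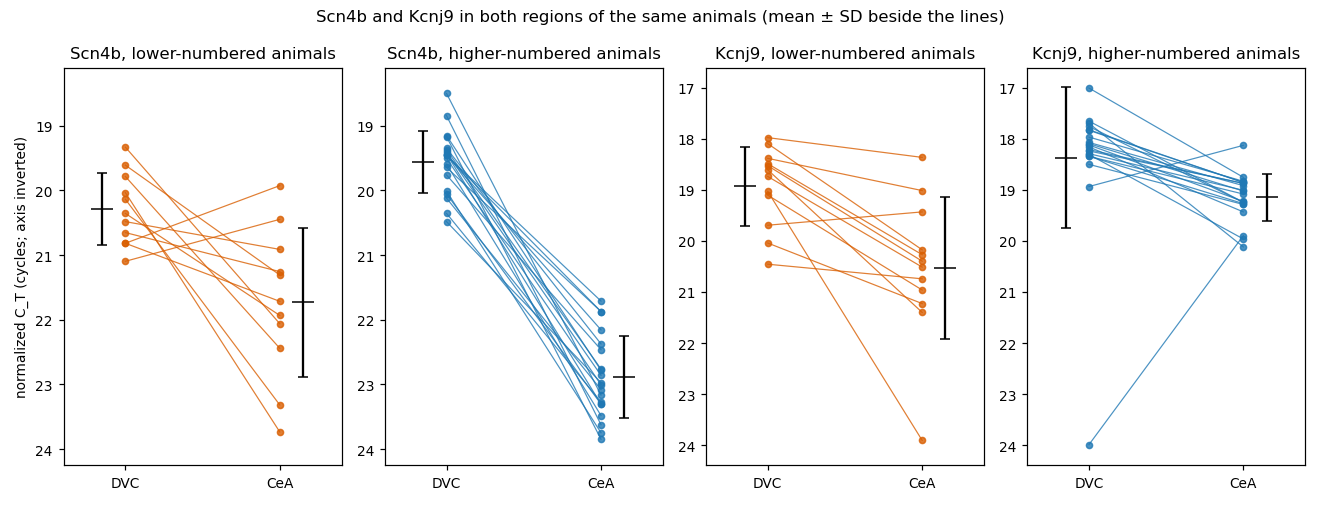
Normalized C_T of Scn4b and Kcnj9 in the DVC and CeA of the same animals (in cycles, axis inverted, 1 line for each animal), by run of animal numbers, with means ± SD beside the lines. Scn4b lines of higher-numbered animals all fall from DVC to CeA, by 2.23 to 4.78, whereas those of lower-numbered animals range from −0.89 to 3.70.

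Kcnj9 in the CeA ran from 18.36 to 23.91 with a median of 20.46 in 12 lower-numbered animals and from 18.13 to 20.12 with a median of 19.02 in 21 higher-numbered ones. Expression was 1.66 ± 0.32 (SE) higher in the latter (3.15-fold, limma adjusted p = 3.15e-04), and 1.29 without the half-measured samples. Its region difference was 1.66 among lower-numbered animals against 0.71 among the others, and the difference between these did not pass (limma adjusted p = 0.367). Kcna2 in the DVC ran from 18.80 to 20.60 with a median of 19.76 in lower-numbered animals and from 17.15 to 20.12 with a median of 19.09 in higher-numbered ones, a difference of 0.70 ± 0.20 (1.62-fold, limma adjusted p = 0.0118). Neither run was even in it. ZT9 replicates 7 to 10 of the lower run lay at 18.80 to 19.15, and ZT5 replicates 7 to 10 and 12 of the higher run at 19.37 to 20.12. The animal runs also differed in overall level in the DVC, since without normalization 120 of the 145 genes passed between them, Hcn2 among them with a difference of 0.75. Since all ZT3 animals were higher-numbered, a comparison of ZT3 with ZT5 also compares different mixes of these animals.

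Across samples, 3 of the 12 pairs of channel genes (6 in each region) were correlated in expression, by Pearson's r with a permutation test and adjustment over the 12. In the DVC, Kcna2 and Scn4b moved together most closely. Over 39 samples Pearson's r was 0.67 (permutation p = 1e-05, the smallest that the draws can give, adjusted p = 1.2e-04) and Spearman's rho 0.61 (permutation p = 7e-05, adjusted p = 8.4e-04). It was 0.61 without the 2 samples farthest from the median of Kcna2. Within lower- and higher-numbered animals r was 0.58 and 0.57. Both genes come from the set of 73 assays, and both followed the sample's overall level in the DVC.

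Kcnj9 in the DVC gave different answers by Pearson and Spearman. With Scn4b, r was 0.14 (permutation p = 0.397, adjusted p = 0.476) and rho 0.52 (permutation p = 9.7e-04, adjusted p = 0.00388). Without the 2 samples farthest in Kcnj9, r was 0.63, and the lower run of animals gave 0.47 and the higher run −0.11. With Kcna2, r was 0.37 (permutation p = 0.0298, adjusted p = 0.0894) and rho 0.55 (4.2e-04 and 0.00252), with r at 0.25 without the 2 samples farthest in Kcna2 and 0.61 and 0.24 in the 2 runs. ZT5 replicate 17 stood farthest in Kcnj9, at 23.99. Hcn2 was correlated with no other channel gene in the DVC by either measure.

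In the CeA, Kcnj9 and Scn4b went in opposite directions. Pearson's r was −0.64 over 32 samples (permutation p = 1.5e-04, adjusted p = 9e-04) and Spearman's rho −0.52 (permutation p = 0.00281, adjusted p = 0.00843), and r was −0.56 without the 2 farthest samples. The 11 lower-numbered animals gave −0.63 and the 21 others −0.01, so the relation did not hold within both runs. Hcn2 and Kcnj9 had an r of −0.47 over 31 samples (permutation p = 0.00769, adjusted p = 0.0308) with a rho of −0.37 (0.0387 and 0.0929). Without the 2 farthest samples r was −0.32, while the lower run of animals gave −0.74 and the higher run 0.10.

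**Figure D5:**
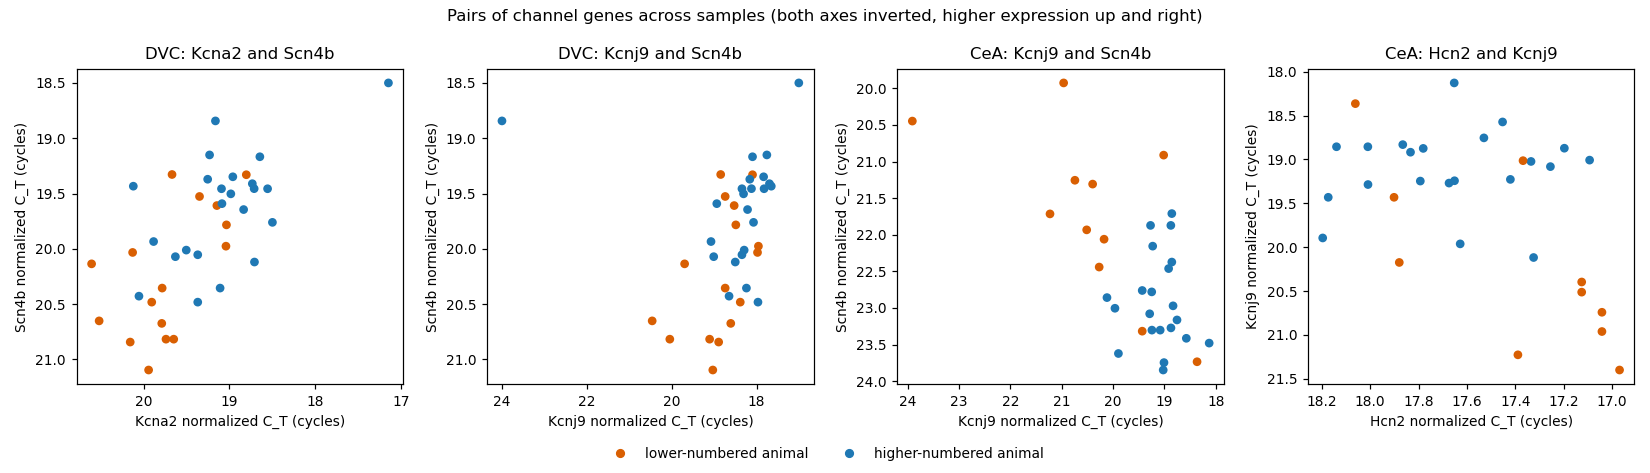
Normalized C_T of 4 pairs of channel genes across the samples of 1 region (in cycles, both axes inverted so that higher expression is up and to the right), with points colored by the run of animal numbers. Kcna2 and Scn4b rise together in the DVC (r = 0.67), and Kcnj9 and Scn4b there hold 1 sample far to the left, at 23.99. In the CeA, Kcnj9 and Scn4b (r = −0.64) and Hcn2 and Kcnj9 (r = −0.47) run against each other over all samples. Among lower-numbered animals r is −0.63 and −0.74, and among higher-numbered animals −0.01 and 0.10.

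Between the regions of the same animal, 2 of the 4 genes were correlated by Pearson's r. Hcn2 had an r of 0.43 over 30 animals (permutation p = 0.0166, adjusted p = 0.0332) and a rho of 0.46 (0.0121 and 0.0242), with r at 0.59 without the 2 farthest animals and 0.33 and 0.44 within lower- and higher-numbered animals. Scn4b had an r of −0.50 over 31 animals (permutation p = 0.00451, adjusted p = 0.0180) and a rho of −0.37 (0.0452 and 0.0603). For Scn4b r was −0.29 without the 2 farthest animals, and the lower run gave −0.54 and the higher run 0.03, so the relation rested on those animals. Kcnj9 had an r of 0.32 (permutation p = 0.0589, adjusted p = 0.0785) and a rho of 0.59 (5.5e-04 and 0.0022), and Kcna2 passed by neither measure.

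The genes of the rest of the panel that followed each channel gene most closely were found by the mean over both regions of Pearson's r of the normalized C_T, given as a description over 137 genes. Kcna2 was followed by Grin2a (an NMDA receptor subunit) with a mean r of 0.55, Gad1 (the GABA-synthesizing enzyme) with 0.51 and Snx10 (a sorting nexin) with 0.44. Kcnj9 was followed by hprt, Ppp5c and Pak1 with 0.57, 0.55 and 0.55, all from the other set of assays. Scn4b was followed by Prkcb1, Gabrd and Grin2a with 0.47, 0.42 and 0.41, and Hcn2 by Plcb1, Rgs6 and Slc9a3r1 with 0.51, 0.45 and 0.42. These rest on 30 to 39 samples in each region, and all genes of a sample share its overall level.

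Genes that act together with these channels were read from 3 lists. Of 18 ligand-gated ion channel subunits, 14 differed between the regions, with 7 in each direction, or 77.8% against 71.8% of all genes, with a median difference of 0.01 and a median size of 0.80 beside 0.59 for all genes and 1.19 for the 4 channel genes. Gabrq, a GABA-A receptor subunit, was higher in the DVC by 3.20, and Gabrd and Grin1, the GABA-A δ subunit and the obligatory NMDA receptor subunit, were higher in the CeA, with differences of −3.75 and −1.63. None of the 18 passed the time point test in either region. The list does not hold every such subunit of the panel, since Grin2b, a further NMDA receptor subunit, was not in it.

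Of 19 genes for G-proteins, cAMP and phosphoinositide signaling that act on ion channels, 10 differed between the regions, 6 higher in the DVC, or 52.6% against 71.8% of all genes. Rgs14 and Itpr1 were higher in the CeA (−3.25 and −2.10), as was Plcb1 (−1.45), which encodes a phospholipase C that acts after Gq, whereas Rgs7, a regulator of Gi and Go signaling, was higher in the DVC (1.05). In the DVC 2 of the 19 passed the time point test, about the share of all genes (10.3%). Rgs4 fell by 2.38 at ZT3 and fell by 1.80 at ZT9 against ZT5 (adjusted p of the F-test 5.81e-05) and Rgs2 fell by 0.68 and fell by 0.94 (5.85e-04). None passed in the CeA. Of 6 G-protein-coupled receptors, 5 could be tested in both regions and 3 differed (60.0% against 71.8% of all genes), with Oprm1, the µ-opioid receptor, 1.75 higher in the DVC and Grm5 and Cckbr higher in the CeA (−0.83 and −0.82), and none passed for time point.

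The tissue was checked against markers. Slc6a2, the noradrenaline transporter of catecholamine neurons, was measured in 38 of 39 DVC samples and in 1 of 33 CeA samples. The mean C_T of 4 neuronal genes, Nrxn3, Grin1 and Gria2 among them, ranged from 17.80 to 19.11 over DVC samples and from 17.59 to 18.85 over CeA samples. Nrxn3 was higher in the DVC (0.81), and Grin1 and Gria2 in the CeA (−1.63 and −1.06). Centered on these 4 genes, the channel genes kept their region directions. Since the 4 genes themselves differed between the regions in both directions, this centring cannot tell what part the share of neurons has. Clu, which astrocytes express strongly, was higher in the CeA (−0.59) and rose in the DVC by 0.96 at ZT3 and 0.78 at ZT9 against ZT5 (limma adjusted p = 0.0220 and 0.0101), which is the direction of the channel means. Of the markers of GABAergic neurons, Slc32a1, the vesicular GABA transporter, passed the time point test in the DVC (adjusted p of the F-test 0.0481), with 0.29 at ZT3 and −0.56 at ZT9 against ZT5, and differed between the regions (−0.27, limma adjusted p = 0.0431). Gad1 passed for neither, with −0.19 between the regions (limma adjusted p = 0.106) and 0.38 and 0.090 against ZT5 in the DVC. None of the 4 neuronal genes passed against ZT5 in either region. The part of cell composition in the channel values was not tested.

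Promoter windows, short stretches around the start site, were listed in RefSeq (GRCr8) for Hcn2, Kcna2, Kcnj9 and Scn4b. None of the 4 held the E-box CACGTG, which circadian factors of the bHLH family bind, or the full cAMP response element TGACGTCA, on either strand, and 6.42% and 1.83% of all 33469 windows did, so these letters are absent from these windows only.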

How the data were processed

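C_T values, which lie on a log2 scale where 1 cycle stands for about 2-fold, were deposited by the authors before and after quantile normalization across all samples, from the BioMark qRT-PCR instrument. The authors' normalized log2 values were used here, and limma's quantile normalization of the raw values gave them back within 4.99e-09 cycles. The brainstem tissue is called DVC in the normalized file and NTS in the raw file. The authors' own differences and means per time point were not used. Kcna2 is written with a damaged name in the normalized file and was identified by its gene ID.

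Fits were made on the negative of C_T with limma 3.58.1 in R 4.3.3 over all genes with at least 2 values per group, with Benjamini-Hochberg adjustment over all genes tested and a threshold of 0.05. The time point test used the samples of a region, the region test time point and region, and the interaction test all 6 groups. Single values were tested by two-sided permutation, enumerated exactly where a group held fewer than 10 samples and otherwise with 100000 draws (Python 3.11.15, numpy 2.4.6, scipy 1.17.1, pandas 2.3.3, figures by matplotlib 3.10.9). The fits were tested on simulated data. Within a region each sample is 1 animal, so p-values of tests within a region measure the spread between animals. The limma fits of region, interaction and region difference by animal run counted the 2 samples of an animal as independent. Only the within-animal tests and the fits with the animal as a block used the pairing. C_T files hold no read counts, and no counting error was given.

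Groups came from the sample labels. The replicate number names the same animal in both regions of a time point, so it pairs the regions, and different animals at different time points, so it pairs none of those. The channel genes and the lists were chosen with earlier results of these data known. Of the 5 genes that the rule chose, 1 is not reported here, nor is a primer pair, and pairs of genes and their adjustment cover the 4 reported. Named beside these were the 3 genes most like each (at least 12 shared samples in each region) and at most 4 genes of each list, those with the smallest p. Alternatives were other normalizations, fewer genes or samples, covariates, blocks, robust regression and the methods' ANOVA. Centring on 4 neuronal genes, leaving out the 2 DVC samples that stood apart and the region difference within runs of animal numbers were chosen after seeing the data.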

Additional observations from a re-analysis of the deposited data

Results flagged for a closer look

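Of 8 groups of 7 samples tested for a sample far from the others, 3 held one, where chance gives about 1 in 20. In the DVC at ZT3, Hcn2 was at 17.06 cycles in replicate 1 with the nearest other sample at 16.52. In the same group Kcna2 was at 19.50 in replicate 7 with the nearest at 18.96. In the CeA at ZT3, Kcnj9 was at 20.12 in replicate 6 with the nearest at 19.29. Each of these samples had the lowest expression of its group.

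The Scn4b region difference was 1.76 larger in higher- than in lower-numbered animals, a difference that was itself tested. It lay between 1.399 and 2.49 under the 8 other settings tried and did not pass without normalization (1.84, limma adjusted p = 0.0705) or at ZT9 alone (1.58, 0.276).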

How the results depend on the processing

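Of the 4 channel genes, 0 passed for time point in the DVC, and 1 passed with unadjusted p, with median centring within each set of assays, with robust regression and with the methods' ANOVA unadjusted (1 in each). The region count of 4 became 2 when genes with any missing value were left out, since 2 of the 4 were then tested. The count of 3 correlated pairs became 2 with median centring, 1 with time point and animal group means removed and 5 without the 2 DVC samples that stand apart. None of the 3 passed within either run of animals. The lower run called 1 other pair, Hcn2 with Scn4b in the CeA (r = 0.83 over 9 samples, permutation adjusted p = 0.0336), and the higher run 0. The 2 genes correlated between regions became 1 with time point means removed and 0 with time point and animal group means removed. The cause of these changes was not tested. Leaving out each animal in turn gave 0 to 0 genes for time point in both regions. With the animal as a block the counts were 4 for region and 0 for the interaction, as without it. For time point the block was the replicate number, with counts of 0 and 0. That number joins different animals across time points, so this setting cannot show an effect of pairing.

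Signs turned as follows, and the cause was not tested. In the CeA, Hcn2 at ZT3 was −0.047 with median centring, −0.086 within each set of assays, −0.029 with centring on complete genes and −0.18 on 4 neuronal genes. Kcna2 at ZT9 was 0.016 without normalization, 0.022 on 4 neuronal genes, 0.57 in higher-numbered animals and 0.028 with robust regression, and −0.23 to 0.057 when samples were left out in turn, above 0 without ZT5 replicate 1, ZT9 replicate 2 or ZT9 replicate 5. Scn4b without normalization was 0.29 at ZT3 and 0.075 at ZT9, and at ZT9 0.027 on complete genes, 0.27 on 4 neuronal genes and 0.037 with under 10% failed reactions. It was −0.26 to 0.083 when samples were left out in turn, above 0 without ZT5 replicate 1 or ZT5 replicate 2. In higher-numbered animals r was 0.10 for Hcn2 with Kcnj9 in the CeA and 0.027 for Scn4b between regions.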
